A study of Homo sapiens with 4 samples.

Results

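The 10 genes described here encode the receptors EGFR, ERBB2, ERBB3 and MET, the EGFR ligands AREG, EREG, TGFA, HBEGF and BTC, and the feedback inhibitor ERRFI1. They were picked by name, with earlier results of these data known, and each matched 1 Ensembl identifier among the 20263 genes of the deposited table. All 10 had enough counts to be tested. The established colon cancer cell line HCT116, of human origin, had been cultured with 10% serum for 24 h in the presence of the compound N_12 or of its solvent DMSO, with 2 mRNA libraries per group. N_12 is presented in the series title as a derivative of the kinase inhibitor nilotinib, but the treatment field of its libraries carries another compound code, HJJ_3_5, and the labels state no dose. Nothing in the labels says whether the replicates were separate cultures, so p-values measure only the spread between these libraries, which may be technical.

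As background, EGFR, ERBB2 and ERBB3 are members of one family of receptor tyrosine kinases that signal as pairs. EGFR binds AREG, EREG, TGFA, HBEGF and BTC, ERBB2 has no known ligand of its own, and ERBB3 binds neuregulins and has little kinase activity. The ligands are made as membrane-anchored precursors that metalloproteases such as ADAM17 release. MET is the receptor of hepatocyte growth factor (HGF). The receptors feed the RAS-ERK and PI3K-AKT pathways, and ERRFI1, itself induced by EGFR signalling, binds the EGFR kinase domain and blocks it. In colorectal cancer EGFR is a target of therapeutic antibodies, and AREG and EREG are studied as markers of response to them.

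None of the 10 genes passed a Benjamini-Hochberg adjusted p of 0.05 in edgeR's quasi-likelihood test of N_12 against DMSO, where 2.25% of all 14105 tested genes did. By estimate alone, ERRFI1, AREG and TGFA lay 1.41-, 1.38- and 1.33-fold lower with N_12, and all 4 receptors lay higher, by 1.16- to 1.27-fold. All 10 estimates lay under 1.5-fold, a change that this procedure called in 2 of 50 genes in simulated data. The absence of calls therefore does not show that these genes were unchanged. The CPM values of the groups did not overlap for 6 of the 10 genes, 3 higher (EGFR, ERBB2 and MET) and 3 lower (AREG, TGFA and ERRFI1), near the 54.7% of all tested genes. An unadjusted p under 0.05 was reached by 4 genes, ERRFI1, AREG and TGFA lower and ERBB2 higher, where 21.8% of all tested genes reached one, 10.8% lower and 11% higher. The other 6, EGFR, ERBB3, MET, EREG, HBEGF and BTC, had intervals that included both signs. This set varied with the model. When edgeR was given a term for replicate number, ERBB2 no longer had an unadjusted p under 0.05. With offsets for GC content and length, EREG and MET had one as well. In whole-culture RNA, fewer cells that make a transcript and less transcript per cell cannot be told apart.

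Libraries held 29769568 to 41717938 counts, and the N_12 libraries were the larger ones. Levels are given as CPM, counts scaled to a common library total after TMM, a method that equalises most genes between libraries, or as CPM per kilobase of exon where genes are compared. The epithelial origin of the line showed in KRT8, KRT18, KRT19, EPCAM and CDH1, whereas VIL1 and KRT20 stayed below 1 CPM in every library. The summed level of the 8 epithelial markers was 4075 to 4607 CPM in DMSO and 3351 to 3694 CPM in N_12. Most of this sum was KRT8 and KRT19, and its part in the differences below was not tested. KRT8, KRT19, EPCAM and CDH1 were lower in both N_12 libraries, and KRT18 overlapped. CDX2 was higher in both, with 13.6 and 14.25 CPM in DMSO and 22.05 and 20.7 CPM in N_12. Of 6 fibroblast markers COL1A2, DCN and LUM had 0 counts throughout, and the summed level was 61.2 to 64.9 CPM in DMSO and 55.5 to 60.2 CPM in N_12, nearly all of it COL1A1. Among 5 leukocyte markers PTPRC and CD3E had 0 counts, and the sum of 35.0 to 41.5 CPM in DMSO and 41.95 to 48.7 CPM in N_12 was nearly all CD68. The 4 endothelial markers summed to 1.46 to 1.61 CPM in DMSO and 0.831 to 2.36 CPM in N_12.

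AREG and EREG, the most abundant ligands, are neighbours on chromosome 4, where RefSeq lists the ligand genes EPGN, EREG, AREG and BTC next to each other among protein-coding genes. Their upstream sequences are shown because the estimates of these neighbours lay on opposite sides of 0. Neither gene was called by edgeR and the interval of EREG included both signs, so opposite directions are not established. Each run is the 250 bases before the RefSeq start (GRCh38.p14, plus strand), at chr4:74364895-74365144 for EREG and chr4:74444886-74445135 for AREG, and capitals mark the motifs found.
EREG: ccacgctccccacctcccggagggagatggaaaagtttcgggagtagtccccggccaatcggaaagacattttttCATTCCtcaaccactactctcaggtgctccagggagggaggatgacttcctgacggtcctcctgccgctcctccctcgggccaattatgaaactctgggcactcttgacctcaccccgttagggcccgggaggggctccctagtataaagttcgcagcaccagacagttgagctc
AREG: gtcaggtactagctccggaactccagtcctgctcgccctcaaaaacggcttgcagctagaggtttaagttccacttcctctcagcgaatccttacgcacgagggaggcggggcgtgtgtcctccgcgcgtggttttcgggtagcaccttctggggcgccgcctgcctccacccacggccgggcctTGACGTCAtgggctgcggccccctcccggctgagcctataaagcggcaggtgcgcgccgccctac
The capitals in AREG spell TGACGTCA, the cyclic AMP response element bound by CREB-family factors, beginning 65 bases before the start. Those in EREG are CATTCC, the reverse complement of the TEAD motif GGAATG, beginning 175 bases before the start. Both strands were searched for these motifs, for the AP-1 motif TGANTCA, for the E-box CACGTG and for the hypoxia response core ACGTG, which the E-box contains. Of 35116 upstream windows of this length in the RefSeq table, 1.65% held TGACGTCA, 11.9% GGAATG, 6.57% TGANTCA, 6.34% CACGTG and 18.5% ACGTG. Windows were present for 9 of the 10 genes, 11 windows in all, and ERBB3 had none. TGACGTCA occurred in that of AREG alone, and the E-box and the hypoxia core in none. TGANTCA occurred in the window of ERBB2 and in the second of the EGFR windows, which also held GGAATG. A match describes letters in a window and says nothing about binding.

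Per kilobase, AREG was the most abundant of the 10 transcripts, at 446 CPM per kilobase in DMSO and 323 in N_12. ERRFI1 followed at 307 and 218, then EREG at 132.5 and 173. Averaged over the libraries, AREG exceeded 99.5% of the 14089 tested genes with a known length, ERRFI1 99.3% and EREG 98.6%. MET came next, at 41.3 CPM per kilobase in DMSO and 50.8 in N_12. EGFR stood at 22.0 and 25.5 CPM per kilobase and TGFA at 23.55 and 17.75. These last genes overlapped in DMSO, where EGFR ranged from 21.4 to 22.6 and TGFA from 21.6 to 25.5, but not in N_12, where TGFA reached at most 18.3 and EGFR at least 25.5. ERBB2 at 7.65 and 9.73, HBEGF at 6.92 and 7.06 and ERBB3 at 6.21 and 7.53 lay close together, and HBEGF and ERBB3 overlapped in both groups. BTC was the lowest, at 1.37 and 1.59 CPM per kilobase.

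**Figure D1:**
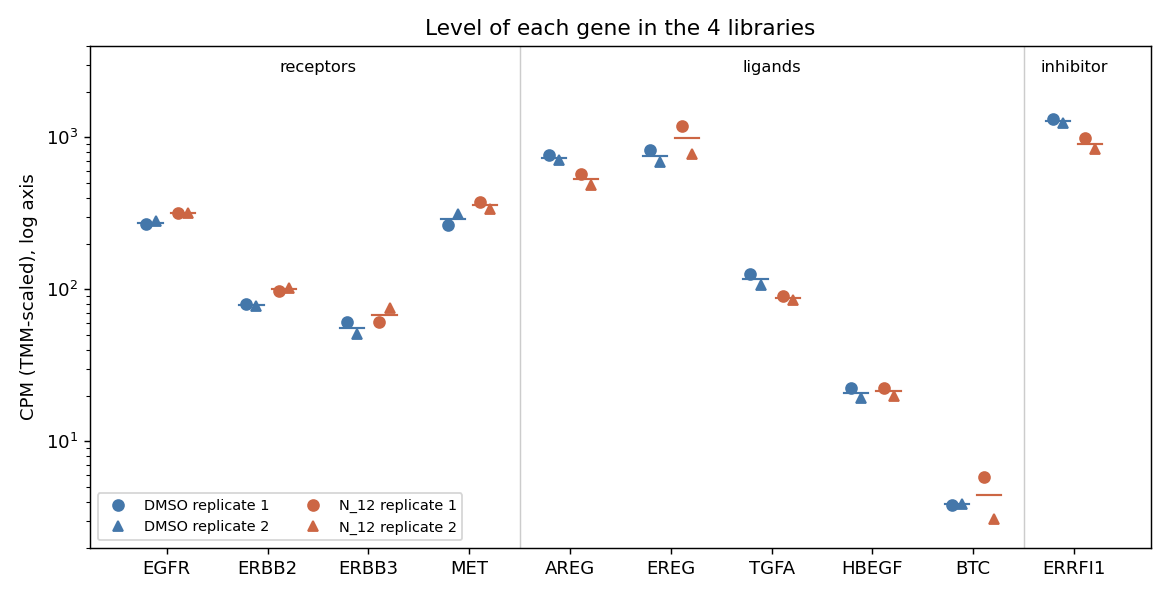
CPM of the 10 genes in each library on a log axis, with DMSO in blue, N_12 in orange, circles for replicate 1, triangles for replicate 2 and bars for group means (n = 2). AREG, TGFA and ERRFI1 are lower in both N_12 libraries than in both DMSO libraries, EGFR, ERBB2 and MET are higher in both, and the remaining 4 genes overlap.

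Among the receptors, ERBB2, the co-receptor that pairs with the other family members, had 80.4 and 77.6 CPM in DMSO replicates 1 and 2 and 98.3 and 102.6 CPM in the N_12 replicates. Both N_12 libraries thus lay above both DMSO libraries. The log2 fold change was 0.35 (SE 0.13, 95% interval 0.04 to 0.65, edgeR adjusted p = 0.186). In the annotation, 5.53% of the exon bases of ERBB2 are shared with MIEN1 and 1.88% with PGAP3 on the opposite strand, whose reads cannot be separated without a stated strand setting.

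EGFR, the receptor of all 5 ligands, measured 267.9 and 282.8 CPM in DMSO and 320.6 and 318.9 CPM in N_12. The groups were apart and the N_12 replicates nearly identical, yet the interval of the log2 fold change of 0.22 ran from -0.07 to 0.50 (edgeR adjusted p = 0.347). With offsets for GC content and length the EGFR estimate was 0.13. MET, the HGF receptor, had 266.6 and 314.7 CPM in DMSO and 377.0 and 338.2 CPM in N_12. Its groups did not overlap, with a log2 fold change of 0.30 (interval -0.03 to 0.63, edgeR adjusted p = 0.266), which was 0.18 without DMSO replicate 1. ERBB3, the neuregulin receptor, stood at 61.3 and 50.9 CPM in DMSO and 60.6 and 75.5 CPM in N_12. Here N_12 replicate 1 fell between the DMSO libraries, and the log2 fold change was 0.28 (interval -0.13 to 0.68, edgeR adjusted p = 0.389). That estimate was 0.11 without N_12 replicate 2 and 0.15 without DMSO replicate 2, and 0.42 without DMSO replicate 1.

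The 3 receptors without overlap compare with 27.9% of tested genes that were higher in both N_12 libraries. The share of the summed receptor level per kilobase held by MET was 51.3% and 55.6% in DMSO and 56.1% and 52.3% in N_12, and that of EGFR 28.97% and 28.1% against 26.8% and 27.7%. The upper bounds of the intervals leave room for receptor levels up to 1.41-fold higher for EGFR, 1.54-fold for MET, 1.57-fold for ERBB2 and 1.604-fold for ERBB3 in N_12.

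Of the ligands, AREG, or amphiregulin, had 762 and 708 CPM in DMSO and 578.5 and 486.2 CPM in N_12. Its groups were separate, with a mean of 735 ± 38.2 CPM (SD, n = 2) in DMSO and 532 ± 65.3 CPM in N_12. The log2 fold change was -0.46 (SE 0.14, interval -0.79 to -0.14, edgeR adjusted p = 0.118), and 8.72% of tested genes had a smaller p. DESeq2, which called 3.91% of tested genes higher and 4.78% lower, called AREG lower as well (log2 fold change -0.47, adjusted p = 0.0384). EdgeR with offsets for GC content and length did not call AREG (-0.33, adjusted p = 0.0811). TGFA, transforming growth factor alpha, went the same way, with 126.4 and 107.3 CPM in DMSO against 90.97 and 85.2 CPM in N_12. Both N_12 values lay below the DMSO values, with a log2 fold change of -0.41 (SE 0.14, interval -0.74 to -0.08, edgeR adjusted p = 0.161).

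EREG, or epiregulin, did not follow AREG. It had 823.9 and 691.4 CPM in DMSO and 1194 and 782.7 CPM in N_12, so the lower N_12 value lay between the DMSO values. The log2 fold change was 0.38 (SE 0.22, interval -0.14 to 0.91, edgeR adjusted p = 0.354). This value rests on 1 library, since it was 0.03 without N_12 replicate 1 and 0.65 without N_12 replicate 2. HBEGF, the heparin-binding ligand, had 22.5 and 19.25 CPM in DMSO and 22.6 and 20.0 CPM in N_12. These nearly coincided, with a log2 fold change of 0.03 (interval -0.37 to 0.42, edgeR adjusted p = 0.940) whose sign turned when a library was left out (-0.08 without DMSO replicate 2 and -0.08 without N_12 replicate 1).

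BTC, or betacellulin, had the fewest counts of the 10 genes, with 117 and 114 counts in DMSO and 247 and 125 counts in N_12. That made 3.84 and 3.88 CPM in DMSO and 5.86 and 3.07 CPM in N_12, with the N_12 libraries on either side of the DMSO pair. Its log2 fold change of 0.21 (interval -0.54 to 0.96, edgeR adjusted p = 0.743) became -0.35 without N_12 replicate 1 and 0.60 without N_12 replicate 2. The 2 ligands with separate groups, AREG and TGFA, were both lower, as were 26.8% of tested genes in both N_12 libraries.

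**Figure D2:**
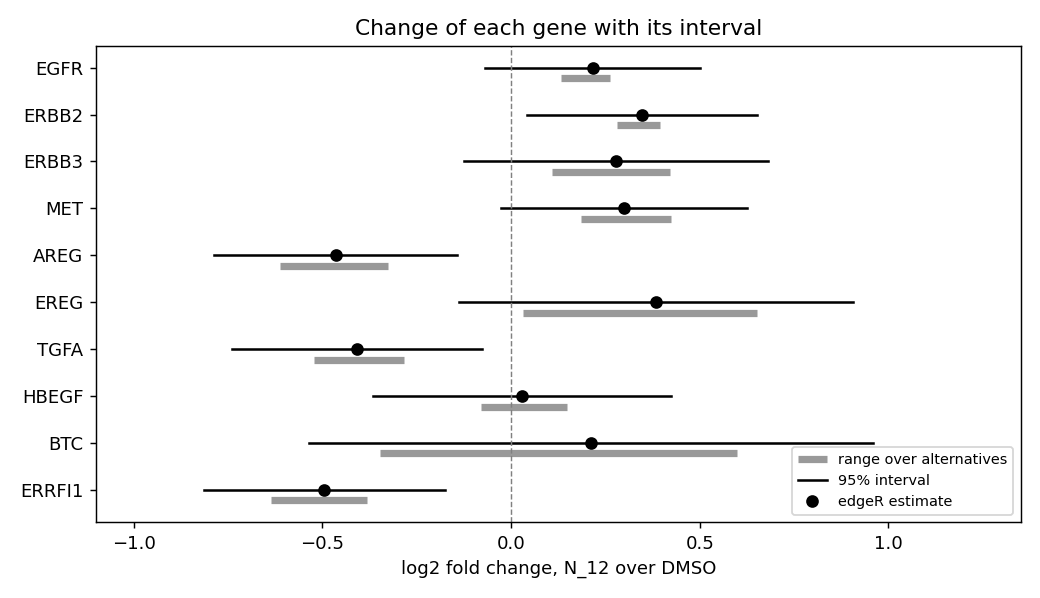
Log2 fold change of N_12 over DMSO for the 10 genes (black points, edgeR), with 95% intervals as black lines and the range over the other settings tried as grey bars. The intervals of AREG, TGFA and ERRFI1 lie wholly below 0 and that of ERBB2 wholly above, and the grey bars of HBEGF and BTC cross 0.

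The balance of the main ligands can be read within a library, where scaling between libraries drops out. Counts of EREG divided by counts of AREG gave 1.08 and 0.977 in DMSO replicates 1 and 2 and 2.06 and 1.61 in the N_12 replicates. Both N_12 ratios exceeded both DMSO ratios, and the mean log2 ratio was 0.83 higher (0.87 ± 0.25 against 0.04 ± 0.10, SD, n = 2). The exact two-sided permutation p of 0.333 is the smallest that 2 libraries against 2 allow, and this pair was picked after its values were seen. As a share of the summed ligand level per kilobase, AREG made up 72.2% and 74.1% in DMSO and 59.7% and 64.6% in N_12. EREG made up 22.5% and 20.85% in DMSO and 35.5% and 29.97% in N_12. TGFA, HBEGF and BTC each held under 4% in every library.

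**Figure D3:**
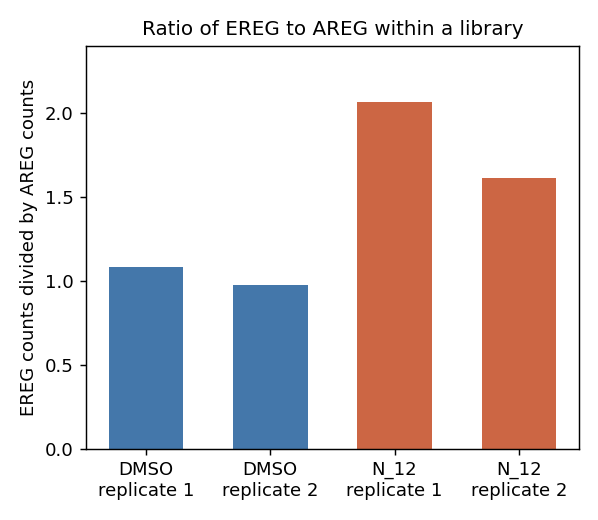
Counts of EREG divided by counts of AREG in each of the 4 libraries, with DMSO in blue and N_12 in orange, on a linear axis from 0. The DMSO bars stand at 1.08 and 0.977 and the N_12 bars at 2.06 and 1.61.

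ERRFI1, the inhibitor of the EGFR kinase, had the smallest p of the 10 genes. It measured 1332 and 1236 CPM in DMSO and 987 and 834.8 CPM in N_12. The groups were apart, with 1284 ± 67.7 CPM (SD, n = 2) in DMSO and 911 ± 107.6 CPM in N_12. The log2 fold change was -0.50 (SE 0.14, interval -0.82 to -0.17, edgeR adjusted p = 0.103), and 7.28% of tested genes had a smaller p. DESeq2 called it lower (log2 fold change -0.50, adjusted p = 0.0231). So did edgeR with offsets for GC content and length (-0.51, adjusted p = 0.0497), a setting that called 3.07% of genes higher and 3.59% lower. An unstranded count could include reads of AL034417.4, which overlaps 3.70% of its exon bases on the opposite strand. The 5 genes outside this group whose centred log2 CPM came nearest to that of ERRFI1 over the 4 libraries, of 11226 with a mean of at least 5 CPM, were MARCHF5, KIAA1958, OLFM2, RRAGD and HPSE (Euclidean distances 0.035 to 0.048). Their log2 fold changes ran from -0.54 (RRAGD) to -0.49 (MARCHF5), a closeness fixed by choosing them on these same values.

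The rest of the signalling route was described with 8 lists of 98 genes, of which 92 were tested. By edgeR 2 were called higher and 3 lower, against 0.822% and 1.43% of all tested genes, and the median log2 fold change was 0.05, against 0.01 over all tested genes. Receptors and ligands outside the 10 genes were mostly scarce. An exception was the receptor gene MST1R, at 59.2 to 71.5 CPM, or 12.35 CPM per kilobase in DMSO and 12.4 in N_12, above ERBB2 and ERBB3. HGF and the neuregulin gene NRG3 had 0 counts in every library, which allows up to 0.0712 to 0.102 CPM depending on the library (3 counts, counting error only). The receptor gene ERBB4 lay between 0.393 and 0.638 CPM and the ligand gene EGF between 1.40 and 2.21 CPM. EdgeR called none of the 7 tested members of this list. NRG2, a neuregulin, had 2.30 and 2.42 CPM in DMSO and 3.56 and 3.78 CPM in N_12 (log2 fold change 0.64, edgeR adjusted p = 0.169). NRG1, at 14 to 26 counts per library, had a log2 fold change of -1.05 with an interval from -2.20 to 0.10 (-0.63 without DMSO replicate 2), and MST1, the ligand of the MET relative MST1R, one of -0.37 (-0.84 to 0.10).

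Among 7 tested genes of ligand shedding and 6 of HGF activation edgeR called none. The metalloprotease gene ADAM15 had a log2 fold change of -0.38 (interval -0.75 to -0.01), which was -0.24 without N_12 replicate 1 and, with GC and length offsets, -0.46 and called lower (adjusted p = 0.0464). The iRhom genes RHBDF1 and RHBDF2, whose products escort ADAM17, had 0.25 and 0.19, and without N_12 replicate 2 these were 0.08 and 0.11. SPINT2, an inhibitor of the proteases that activate HGF, had 496.9 and 459.8 CPM in DMSO and 308.4 and 367.0 CPM in N_12. Its groups were apart (log2 fold change -0.50, interval -0.82 to -0.18, edgeR adjusted p = 0.101). SPINT2 was called lower by DESeq2 (adjusted p = 0.0288) and by edgeR with GC and length offsets (adjusted p = 0.0400). Its relative SPINT1 differed by 0.25 (-0.06 to 0.56). The protease gene PLAU differed by 0.13 (-0.20 to 0.45), and by 0.05 without DMSO replicate 2 or without N_12 replicate 2.

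Of 14 adaptor genes, CRKL fell. This gene, whose product is an adaptor downstream of receptor tyrosine kinases, had 426.1 and 375.4 CPM in DMSO and 224.0 and 230.0 CPM in N_12. The log2 fold change was -0.82 (SE 0.13, edgeR adjusted p = 0.0249). Among settings without a replicate term, CRKL was not called without DMSO replicate 1 (adjusted p = 0.0842), with limma-voom (0.0510), without robust estimation (0.0533) or without either N_12 library (0.139 and 0.1505). GAB1, the scaffold that MET binds, had 5.94 and 4.86 CPM in DMSO and 9.07 and 11.2 CPM in N_12. Both N_12 values were higher, with a log2 fold change of 0.91 (interval 0.41 to 1.40) and edgeR adjusted p = 0.0718, and DESeq2 called it higher (adjusted p = 0.0216). SOS2, an exchange factor that loads RAS with GTP, had a log2 fold change of 0.58 (interval 0.22 to 0.95), called higher by DESeq2 (adjusted p = 0.0293) and by edgeR with GC and length offsets (adjusted p = 0.0421).

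Of 13 RAS-ERK and 12 PI3K-AKT genes edgeR called none, with medians of 0.08 and 0.04. MAP2K1, which encodes the kinase MEK1, differed by -0.40 (interval -0.71 to -0.09), and MAP2K2, which encodes MEK2, by 0.27 (-0.05 to 0.58) and by 0.16 without N_12 replicate 2. MAP2K1 has a pseudogene copy, so its count is uncertain. PIK3CB, a catalytic subunit of PI3K, differed by 0.46 (0.05 to 0.88), PIK3R1, a regulatory subunit, by 0.32 (-0.23 to 0.88) and the kinase gene AKT2 by -0.22 (-0.59 to 0.14). Single libraries moved these values, PIK3CB to 0.28 without DMSO replicate 1, AKT2 to -0.07 without N_12 replicate 1 and to -0.42 without N_12 replicate 2. PIK3R1 ranged from 0.04 without N_12 replicate 2 and 0.11 without DMSO replicate 2 to 0.58 without DMSO replicate 1 and 0.55 without N_12 replicate 1. Among 18 genes of receptor down-regulation edgeR called none, and the median was 0.01. SH3KBP1, which links CBL to endocytosis, differed by 0.56 (0.02 to 1.10), and by 0.22 without N_12 replicate 1. The receptor antagonist family member LRIG3 differed by 0.47 (0.05 to 0.89) and the phosphatase gene PTPN2 by -0.38 (-0.73 to -0.02).

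The 15 ERK-responsive genes split, with 2 called higher and 2 lower and a median of 0.14. FOS and EGR1, immediate-early transcription factor genes, fell by 1.68 and 1.32 on the log2 scale (edgeR adjusted p = 0.00428 and 0.00606). FOS had 34.5 and 33.0 CPM in DMSO and 10.9 and 10.2 CPM in N_12. DUSP4, a phosphatase gene of ERK feedback, rose from 577.2 and 569.9 CPM in DMSO to 921.4 and 942.2 CPM in N_12 (log2 fold change 0.70, SE 0.12, edgeR adjusted p = 0.0328). SPRY1, a Sprouty gene of receptor feedback named after its values were seen, rose from 3.38 and 3.23 CPM to 7.38 and 7.36 CPM (1.16, SE 0.20, edgeR adjusted p = 0.0329). Both rises lost their call without DMSO replicate 1 (adjusted p = 0.0936 for DUSP4 and 0.0791 for SPRY1), without DMSO replicate 2 (0.0732 and 0.0686), with limma-voom (0.0527 and 0.0630) and without robust estimation (0.0562 and 0.0575). No gene in the whole table was called by edgeR when either N_12 library was left out, although 2855 genes without replicate 1 and 2763 without replicate 2 had an unadjusted p under 0.05.

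**Figure D4:**
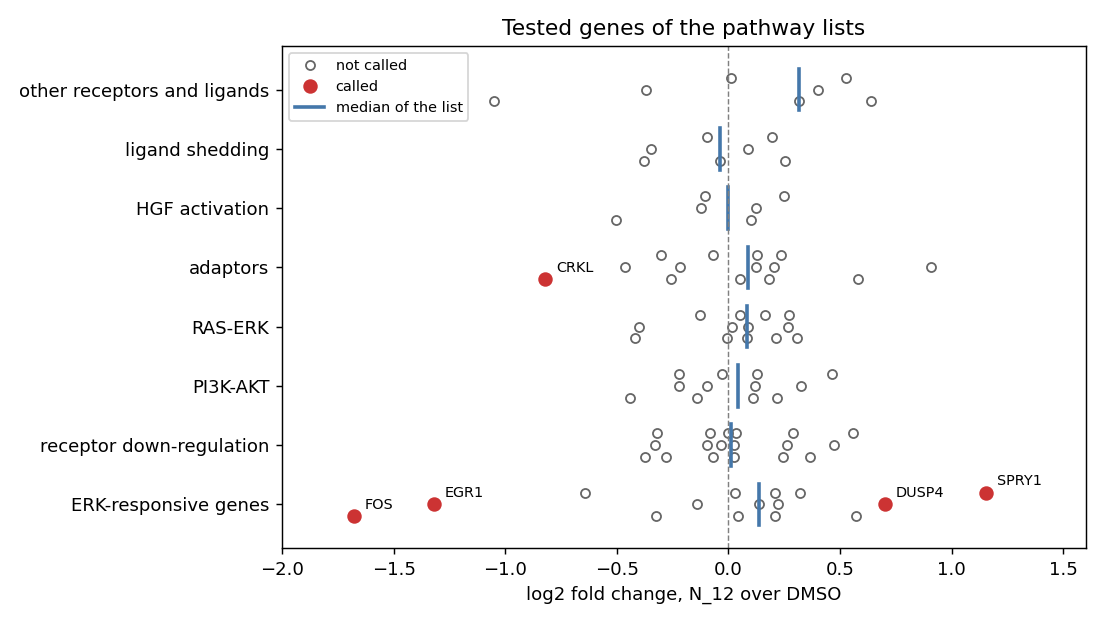
Log2 fold change of N_12 over DMSO for the 92 tested genes of the 8 lists, 1 circle per gene with vertical offsets for legibility, filled red where called by edgeR at an adjusted p of 0.05, and blue bars for list medians. The called genes are CRKL among the adaptors and FOS, EGR1, DUSP4 and SPRY1 among the ERK-responsive genes, and the other circles lie between -1.05 and 0.91.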

How the data were processed

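The 4 mRNA libraries of HCT116 cells, 2 with DMSO and 2 with N_12, were grouped and numbered by the sample titles. The authors deposited unnormalized whole-number counts for human Ensembl genes. For the aligner, the counter and strandedness, nothing is stated in the labels, and the mouse builds GRCm38 and mm10 named in the submitters' processing notes do not match the human identifiers. Symbols were found for 20148 of 20263 identifiers. Exon lengths, GC content and overlaps came from GENCODE release 29, and upstream windows from RefSeq (GRCh38.p14).

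In R 4.3.3, edgeR 4.0.16 kept 14105 genes by its expression filter, scaled libraries by TMM (factors 0.98 to 1.02) and fitted a robust quasi-likelihood model of N_12 against DMSO with no replicate term. Called genes had a two-sided p under 0.05 after Benjamini-Hochberg adjustment over the tested genes. The procedure was tested on simulated data, where it called more unchanged genes than the threshold is meant to allow (32 of 164 calls). It called few of the smallest changes, 2 of 50 genes at 1.5-fold against 31 of 50 at 2-fold. Genes called here may thus include unchanged ones, and a small change can go without a call. Replicates differed beyond counting noise (chi-square divided by its degrees of freedom, 37.5 in DMSO and 59.6 in N_12) and were counted separately. Total counts per library of 29769568 and more leave replicate spread as the main limit for genes with many counts. For genes with few counts, such as NRG1 and ERBB4, counting error is a further limit.

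Named genes were the 10 members, the 3 genes of smallest p in each list, the 5 genes nearest to the member of smallest p, and called genes needed to complete a count. A gene that this rule selects is not reported here. Members and lists were chosen with earlier results of these data in view. Alternatives were other scalings and filters, a replicate block, leaving out each library, limma-voom (limma 3.58.1), DESeq2 1.42.0, non-robust estimation, offsets for GC content and length, and, added after seeing the data, a newer quasi-likelihood estimation and a crossed block.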

Additional observations from a re-analysis of the deposited data

How the results depend on the processing

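None of the 10 genes was called by edgeR under the other scalings, filters, block designs or estimation methods, or without any 1 library, except ERRFI1 with GC and length offsets (1 gene). DESeq2 called 2 of them, AREG and ERRFI1, and limma-voom 0. The sign of 8 genes held in every setting. Leaving out 1 library moved HBEGF between -0.079 (without DMSO replicate 2) and 0.148, with -0.077 without N_12 replicate 1. It moved BTC between -0.347 (without N_12 replicate 1) and 0.599. AREG ran from -0.612 (without N_12 replicate 1) to -0.349 (without N_12 replicate 2), and ERRFI1 from -0.637 to -0.383 in the same fits. TGFA ran from -0.521 (without DMSO replicate 2) to -0.284 (without DMSO replicate 1). ERBB2 ran from 0.311 (without N_12 replicate 2) to 0.374 (without DMSO replicate 1). Over all tested genes 317 were called, and leaving out 1 library gave 0 to 451, while the 5 called pathway genes became 0 to 5. DESeq2 called 1225 genes and 10 pathway genes, limma-voom 131 and 2, edgeR without robust estimation 131 and 2, and edgeR with GC and length offsets 938 and 10. Higher calls made up 36.6% of all calls, 46.2% with library totals alone, 45.0% with DESeq2 and 46.1% with GC and length offsets. With a library left out, the lone library of its group is assumed to vary like those of the other group. The replicate numbers come with no stated pairing. With the replicate block 963 genes were called, 8 pathway genes and 0 of the 10, and with the replicate block and GC and length offsets 9, 0 and 0. Deviations of same-numbered libraries correlated at -0.114 across genes, and the crossed replicate block called 28 genes and 0 pathway genes. Under the replicate block with GC and length offsets, and under the crossed block, edgeR did not call FOS, EGR1, CRKL, DUSP4 or SPRY1. The adjusted p was 0.0573 for FOS and EGR1 with the crossed block and 0.0578 with the replicate block and offsets. It ran up to 0.0869 for SPRY1 with the crossed block. With the plain replicate block GAB1 was called higher (adjusted p = 0.0162). The cause of these shifts was not tested. With 2 libraries per group, the upper bounds of the 7 genes estimated higher ran from 1.34-fold (HBEGF) to 1.94-fold (BTC).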

Other observations

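Counts of ERRFI1 divided by counts of EGFR, its target, were 4.97 and 4.37 in DMSO replicates 1 and 2 and 3.08 and 2.62 in the N_12 replicates. Both N_12 ratios lay below both DMSO ratios, which follows from ERRFI1 being lower and EGFR higher in both N_12 libraries. The pair was picked after its values were seen, and no test was made.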
